A study of Mus musculus with 19 samples.

Results

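The thin filament of striated muscle was followed through 10 genes, those of the troponin complex (Tnnc1, Tnni1, Tnni3, Tnnt1 and Tnnt2), the tropomyosins (Tpm1 and Tpm2), the sarcomeric actins (Actc1 and Acta1) and the filament-elongating leiomodin Lmod2. They were taken by gene symbol, and all 10 were found among the 24421 gene rows of the 'HEART' data and among 22769 loci with a single symbol in the 'SHF' data. The samples were single mouse embryos at E9.5, of 2 genotypes. The conditional knockouts (cKO) were Mesp1-Cre; Chd7 fl/fl, and the controls carried Mesp1-Cre alone by their labels, so that Cre was present in both. Cre under Mesp1 control acts in early mesoderm that forms the heart and part of the head muscles, and cells outside that lineage keep Chd7, which encodes a chromatin remodeller. 'HEART' was the outflow tract with the heart tube (4 cKO and 4 control embryos, poly(A)-selected mRNA, 1 read count per gene and embryo). 'SHF' was the distal pharyngeal apparatus with the second heart field (6 cKO and 5 control embryos, ribosomal RNA-depleted total RNA). By the study's account the heart tissue came from embryos also dissected for 'SHF', so the dissections are not independent. For 'SHF' the data give a single FPKM (fragments per kilobase of transcript, scaled to library size) for each genotype, from which no spread between embryos can be computed, and no test was made of them here.

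In a thin filament, actin monomers form a helical cable, tropomyosin lies along its groove, and the 3 troponin subunits sit on tropomyosin at regular intervals. Troponin C binds calcium, troponin I holds the filament in its inhibited state and troponin T ties the complex to tropomyosin, so that a rise in calcium uncovers the sites where myosin binds. Several subunits have more than 1 gene. Tnni1 (slow skeletal troponin I) precedes Tnni3 (cardiac troponin I) in the embryonic heart, Tnnt1 is the slow skeletal and Tnnt2 the cardiac troponin T, and the embryonic heart makes skeletal alpha-actin (Acta1) beside cardiac alpha-actin (Actc1). Tpm1 and Tpm2 also make tropomyosins of smooth muscle and non-muscle cells.

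Troponin genes lie in pairs in the mouse genome. Tnni1 (chromosome 1, 135779434 to 135810989 in GRCm38, GENCODE M21) is followed by Tnnt2 (135836354 to 135852260) after 25364 bases, with only Lad1 between them among protein-coding genes. Tnnt1 (chromosome 7, 4504570 to 4516382) and Tnni3 (4518305 to 4524229) are neighbours 1922 bases apart. The others lie singly, with Tnnc1 on chromosome 14 (31208312 to 31211729), Actc1 on chromosome 2 (114047282 to 114053548), Acta1 on chromosome 8 (123891769 to 123894751), Tpm1 on chromosome 9 (67022590 to 67049406), Tpm2 on chromosome 4 (43514711 to 43523765) and Lmod2 on chromosome 6 (24597762 to 24605414). Annotated genes overlap Tnnc1 (Nisch, opposite strand), Tnni3 (Dnaaf3, same strand), Actc1 (A530058N18Rik, opposite strand) and Acta1 (Gm20388, opposite strand), and reads in the shared stretches cannot be assigned with certainty without a stated strand setting. The actins are near-identical proteins, yet of 1404 windows of 43 bases (the read length) along the longest Acta1 transcript only 38 (2.71%) also occur in transcripts of another gene, Actb and Actg1 first among them. For the other 9 genes that count was 0.

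The upstream sequence is shown for Acta1, which was the only member to pass the test in 'HEART', and for Actc1 and Tnnc1, which were at least 2-fold lower in cKO 'SHF'. Each line gives RefSeq's window of 250 bases before to 50 bases after the annotated start site (GRCm38.p6), 5′ to 3′ on the gene's strand. Capitals mark CArG boxes, the motif bound by serum response factor, and MCAT elements (CATTCC on either strand), the motif of TEAD factors.
Acta1, chr8:123894726-123895025, minus strand: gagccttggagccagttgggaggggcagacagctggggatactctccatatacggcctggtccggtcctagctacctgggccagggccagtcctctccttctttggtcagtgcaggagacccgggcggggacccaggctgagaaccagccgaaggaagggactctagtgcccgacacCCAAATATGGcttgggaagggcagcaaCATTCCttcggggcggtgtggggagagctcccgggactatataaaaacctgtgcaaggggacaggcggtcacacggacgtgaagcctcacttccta
Actc1, chr2:114052826-114053125, minus strand: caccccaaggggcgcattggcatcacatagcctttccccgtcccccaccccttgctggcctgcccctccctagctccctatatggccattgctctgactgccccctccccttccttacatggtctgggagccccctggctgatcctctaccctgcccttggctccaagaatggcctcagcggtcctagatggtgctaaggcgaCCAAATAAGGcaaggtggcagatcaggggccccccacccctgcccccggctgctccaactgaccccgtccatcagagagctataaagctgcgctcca
Tnnc1, chr14:31208062-31208361, plus strand: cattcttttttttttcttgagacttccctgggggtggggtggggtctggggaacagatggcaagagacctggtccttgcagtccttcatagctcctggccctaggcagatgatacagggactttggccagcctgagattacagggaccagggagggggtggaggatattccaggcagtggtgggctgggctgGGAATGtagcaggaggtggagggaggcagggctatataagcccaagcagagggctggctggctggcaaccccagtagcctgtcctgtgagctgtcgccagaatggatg
A CArG box (searched on both strands) was present in the windows of 2 of the 10 genes, both actins. It was at -73 in Acta1 (CCAAATATGG) and -47 in Actc1 (CCAAATAAGG), positions being counted to the first base from the annotated start site. The letters TATAAA began at -7 in Acta1 and at 34 in Actc1, so these distances hold for the annotated start sites only. A CArG box was present in 1.63% of all 32851 mouse promoter windows of this length. MCAT was present in 4 of the 10 genes (Acta1, Tnnc1, Tnnt2 and Tpm1), against 14.7% of all windows. For both motifs a gene counted if any of its windows matched, whereas the share over all promoters is per window. Tnni1 and Tnnt2 had 2 windows each, and MCAT was in 1 of the 2 of Tnnt2. No MEF2 site was found in these 12 windows of the 10 genes, against 3.19% of all windows on both strands. These matches describe letters in 1 window per start site and are not evidence of binding.

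'HEART' counts summed to 8640839 to 15030099 per embryo and are given as CPM, counts scaled to a common library size after TMM normalisation. Chd7 averaged 35.6 ± 10.7 CPM in cKO and 232 ± 7.57 CPM in control 'HEART' (SD, n = 4 each), with no overlap, and had 18.9 FPKM in cKO against 28.2 in control 'SHF'. Xist, made from the inactive X chromosome, ranged from 34.6 to 86.3 CPM over all 4 cKO hearts and was at 61.4 CPM in control 1. It was at 1.28 CPM or less in controls 2 to 4, so genotype and Xist level were largely confounded. In 'SHF' Xist also differed, with 20.9 FPKM in cKO against 10.1 in control. Of the cKO hearts, cKO 4 stood apart from the others (a mean squared deviation of 18.3 to 21.7 times sampling noise per gene, against 5.38 to 9.01 among cKO 1 to 3), and control 4 did so among controls (13.9 to 17.5 times, against 6.23 to 10.1). The 10 genes together took 2.39% to 2.54% of all counts in cKO and 2.42% to 2.58% in control hearts. All 10 cardiomyocyte marker genes examined, Myh6, Ttn and Nkx2-5 among them, passed the count filter in 'HEART', while 7 of 10 skeletal muscle markers, Myod1 and Myog among them, did not.

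The first question was how loss of Chd7 changed these genes once cells had entered the heart. Acta1 rose in cKO 'HEART', and the other 9 genes did not pass the test. The rise was 1.37-fold, and the abundant cardiac partner Actc1 stayed within a 95% interval of 0.924 to 1.08 times its control level. By edgeR's quasi-likelihood test with Benjamini-Hochberg adjustment over 12694 genes and a threshold of 0.1, 1 of 10 members was called, against 6.44% of all genes tested, and that 1 was higher, against 3.51% of all genes. The median log2 fold change was -0.08 over the 10 members and -0.0062 over all genes, and 3 of 10 members had an unadjusted p under 0.05, against 2105 of the 12694 genes. In whole tissue, fewer cells of a type cannot be told apart from less RNA in each of them.

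Acta1 was at 1702, 1762, 1442 and 1590.0 CPM in cKO 1 to 4, against 1212, 1159, 1162 and 1195 CPM in control 1 to 4. Every cKO heart lay above every control heart, as happened for 10.2% of all genes in one direction or the other. The means were 1624 ± 141 CPM in cKO and 1182 ± 25.7 CPM in control (SD, n = 4 each). On the log2 scale the difference was 0.46 ± 0.07 (SE, adjusted p = 0.00227). The call was kept in each fit that left out 1 embryo (log2 fold change 0.42 to 0.51, adjusted p = 0.00187 to 0.0127) but not with log2 Xist as a covariate (0.42 ± 0.11, adjusted p = 0.12). Control 1, which had a high Xist level, had 1212 CPM of Acta1, the highest of the controls and below all cKO hearts.

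**Figure D1:**
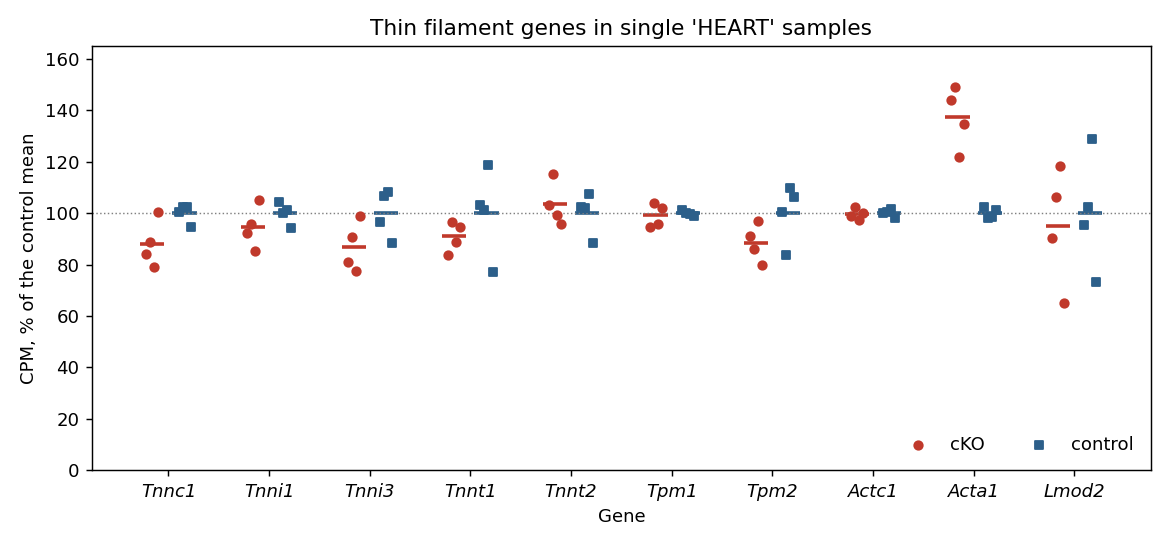
CPM of each thin filament gene in each 'HEART' embryo as a percentage of that gene's control mean, with cKO as circles, control as squares and bars at the group means (n = 4 each). Only Acta1 has genotypes that do not overlap, with a cKO mean 1.37 times that of control.

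Actc1, the main actin of the embryonic heart, was at 15532, 16059, 15280.2 and 15665 CPM in cKO 1 to 4, against 15683, 15767, 15940.5 and 15363 CPM in control 1 to 4. These values overlapped fully and varied by only 2.08% in cKO and 1.54% in control (coefficient of variation). The log2 fold change was -0.0050 ± 0.05 (SE, adjusted p = 0.974). Relative to Actc1 in the same embryo, Acta1 stood at 11.0, 11.0, 9.44 and 10.2 CPM per 100 CPM of Actc1 in cKO 1 to 4, against 7.73, 7.35, 7.29 and 7.78 in control 1 to 4. The ratio averaged 10.4 ± 0.736 in cKO and 7.54 ± 0.251 in control (SD, n = 4 each) and did not overlap. It is independent of library scaling, and no test was made of it.

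Troponin C is encoded in heart by Tnnc1. It was at 875, 925, 822 and 1045 CPM in cKO 1 to 4, against 1046, 1063, 1066 and 986 CPM in control 1 to 4. In all, 3 of the 4 cKO hearts were below all controls, and cKO 4 lay among the controls. The log2 fold change of -0.18 ± 0.07 (SE) did not pass (adjusted p = 0.236), with a 95% interval of 0.788 to 0.987 times control. Of the 8 fits that left out 1 embryo, it passed only in that without cKO 4 (-0.24, adjusted p = 0.03325). In the others the adjusted p was 0.223 to 0.4525. Without cKO 4, 1421 of 12813 genes were called, against 817 of 12694 with all embryos. Against Tnnt2, the troponin T of the same complex, Tnnc1 stood at 47.4, 44.9, 46.2 and 60.9 CPM per 100 CPM in cKO 1 to 4 and at 57.0, 58.3, 55.5 and 62.3 in control 1 to 4, so that the groups overlapped only through cKO 4.

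**Figure D2:**
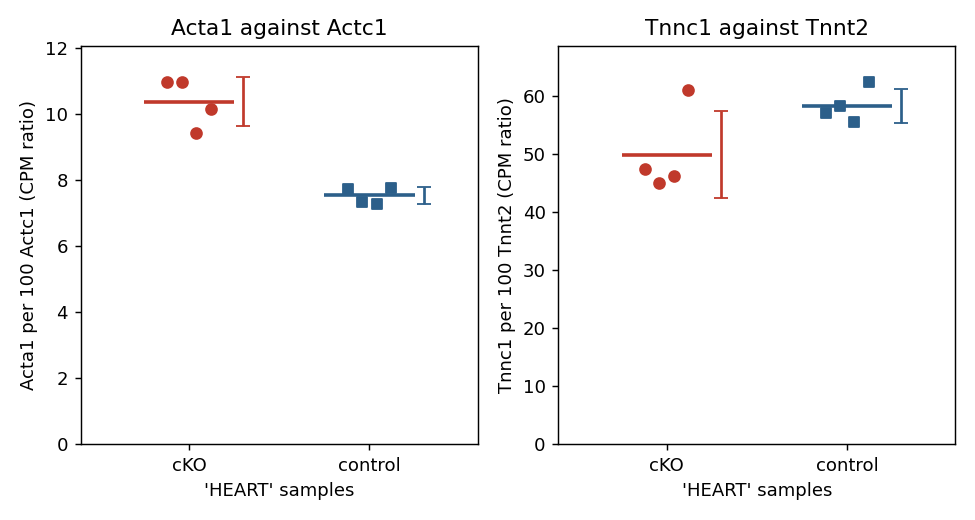
Ratio of Acta1 to Actc1 and of Tnnc1 to Tnnt2 in each 'HEART' embryo (CPM of the first per 100 CPM of the second, axes from 0), with cKO as circles, control as squares, horizontal bars at the means and error bars of 1 SD (n = 4 each). The actin ratio does not overlap between genotypes, and in the troponin ratio cKO 4, at 60.9, lies within the control range.

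For both inhibitory subunits cKO 4 was the highest cKO heart. Tnni3 was at 308, 344, 294 and 376 CPM in cKO 1 to 4, against 367, 406, 411 and 337 CPM in control 1 to 4. The genotypes overlapped, and the log2 fold change of -0.20 ± 0.09 (SE) did not pass (adjusted p = 0.278) except without cKO 4 (-0.26, adjusted p = 0.0887). In the other fits that left out 1 embryo the adjusted p was 0.164 to 0.514. Tnni1, the more abundant troponin I at this stage, was at 1367, 1417, 1262 and 1556 CPM in cKO and 1547, 1484, 1497 and 1396 CPM in control, and its log2 fold change was -0.08 ± 0.07 (SE, adjusted p = 0.636). Here cKO 4 was the highest of all 8 hearts and the other cKO hearts overlapped the controls only through cKO 2. There were 424 ± 14.8 Tnni1 counts per 100 Tnni3 counts in cKO and 391.5 ± 31.3 in control (SD, n = 4 each), and these overlapped.

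Neither troponin T gene passed the test. Tnnt2 was at 1846, 2061, 1780.3 and 1717 CPM in cKO 1 to 4, against 1835, 1824, 1921 and 1582 CPM in control 1 to 4. The lowest value of each genotype was in embryo number 4, and the log2 fold change was 0.05 ± 0.08 (SE, adjusted p = 0.816). Tnnt1, far less abundant, was at 39.8, 45.9, 42.2 and 44.9 CPM in cKO and 48.9, 48.1, 56.5 and 36.6 CPM in control, which overlapped (log2 fold change -0.14 ± 0.11, SE, adjusted p = 0.614).

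Of the tropomyosins, Tpm1 was at 3005, 3304, 3046 and 3238 CPM in cKO 1 to 4, against 3217, 3181, 3164 and 3135 CPM in control 1 to 4. The log2 fold change was -0.0120 ± 0.06 (SE) and the adjusted p 0.942. Its 95% interval ran from 0.912 to 1.08 times control. Tpm2 was at 67.4, 63.5, 71.5 and 59.0 CPM in cKO and 74.2, 61.8, 81.2 and 78.4 CPM in control, and its log2 fold change of -0.18 ± 0.09 (SE) did not pass (adjusted p = 0.366).

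Lmod2, which lengthens thin filaments at their pointed ends, was the most variable member. It was at 61.8, 72.7, 81.0 and 44.5 CPM in cKO 1 to 4, against 65.4, 70.2, 88.4 and 50.3 CPM in control 1 to 4. In both genotypes embryo number 3 was highest and number 4 lowest, and in both genotypes these embryos carry codes that begin with E8 and E19. The codes of cKO 1 and cKO 2 both begin with E12, which no control code does. The labels do not give the meaning of a shared prefix, so embryos with the same prefix may not be independent. The coefficient of variation was 24.3% in cKO and 22.9% in control, and the log2 fold change was -0.08 ± 0.18 (SE, adjusted p = 0.872), with an interval of 0.721 to 1.24 times control.

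Levels can be compared between genes per length. In CPM per kilobase of annotated exon, Actc1 stood first in both genotypes, at 9663 ± 201 in cKO and 9696 ± 150 in control hearts (SD, n = 4 each). In cKO it was followed by Acta1 (1057 ± 91.6) and Tnnc1 (881 ± 91.4), whereas in control Tnnc1 (999 ± 35.7) came before Acta1 (769.6 ± 16.7). The remaining order was Tpm1, Tnni1, Tnnt2, Tnni3, Lmod2, Tpm2 and Tnnt1 in both genotypes, and in control each member differed from the next by more than 1 SD. The order depended on the length used. Per kilobase of coding sequence only Actc1 and Tnni3 kept their places and Tnni1 came second, with 3600 exon bases over all its annotated transcripts against 561 coding bases.

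Among 27 further genes of thin filament assembly, 24 were tested in 'HEART', of which 2 rose and 2 fell, with a median log2 fold change of 0.03. Of all genes tested, 6.44% were called and 3.51% were called higher. The other muscle actins were the ones that rose. Acta2, smooth muscle alpha-actin, was at 6431, 6470.4, 5793 and 6455 CPM in cKO 1 to 4, against 5529, 4857, 5127 and 5584 CPM in control 1 to 4 (log2 fold change 0.25 ± 0.07, SE, adjusted p = 0.0474). Actg2, smooth muscle gamma-actin, averaged 14.6 ± 3.81 CPM in cKO and 4.97 ± 1.67 CPM in control (SD, n = 4 each), or 1.56 ± 0.24 on the log2 scale (SE, adjusted p = 0.00296). Nebl, the nebulin relative nebulette that joins thin filaments to the Z-disc, fell to 190.5 ± 33.1 CPM in cKO, against 278 ± 14.3 CPM in control (log2 fold change -0.54 ± 0.11, SE, adjusted p = 0.0119). Tnni2, fast skeletal troponin I, averaged 9.20 ± 0.987 CPM in cKO and 15.1 ± 2.77 CPM in control (log2 fold change -0.71 ± 0.15, SE, adjusted p = 0.0176). None of these 4 genes had genotypes that overlapped, as was so for 10.2% of all genes, but the 4 were named because they passed the test.

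All 6 markers of smooth muscle had a log2 fold change above 0 in cKO 'HEART', as Acta1 did, with a median of 0.42. Of the 6 markers 4 passed the test, Tagln at 1550 ± 101 CPM against 927 ± 65.7 CPM in control and Cnn1 at 363 ± 27.3 CPM against 253 ± 12.4 CPM in control (SD, n = 4 each), with Myh11 and Acta2 the others. Smtn (log2 fold change 0.08 ± 0.11, SE, adjusted p = 0.764) and Myocd (0.32 ± 0.16, SE, adjusted p = 0.353) did not pass. The summed level of all 6 was 7961 to 8897 CPM in cKO and 6258 to 7153 CPM in control, with no marker at 0. Most of that sum was Acta2 alone, which averaged 6287 CPM in cKO and 5274 CPM in control. The part of smooth muscle in the Acta1 result was not tested. The summed level of 10 cardiomyocyte markers was 23640 to 27230 CPM in cKO and 25000 to 29750 CPM in control, of which 1, Pln, fell. The summed level of 6 tested erythroid genes was 1203 to 5627 CPM in cKO and 4324 to 12600 CPM in control. Leaving those genes out gave the same 1 member called. That step removes few rows and hardly changes the scaling (Acta1 log2 fold change 0.4582 in both fits), so it cannot show the part of blood cells, which was not tested. Of 5 tested pharyngeal epithelium genes 1, Krt19, rose, and their summed level was 500 to 558 CPM in cKO and 246 to 502 CPM in control. That sum was almost all keratin. Cdh1 (0.934 CPM in cKO, 3.33 in control) and Epcam (1.81 in cKO, 1.15 in control) were very low, differed in direction and did not pass. Of 18 regulators of thin filament genes 2 fell, Hand2 (log2 fold change -0.54 ± 0.08, SE) and Mef2c (-0.40 ± 0.12, SE, adjusted p = 0.0796), and Srf, Myocd and Nkx2-5 were among the 16 that did not pass. Of 14 tested thick filament and titin genes 2 fell, Myl1 and Mybphl, with a median of -0.06. For these lists too, the share called over all genes was 6.44%, in either direction.

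The second question was what happened in the distal pharyngeal apparatus, where progenitors of the heart's poles begin to differentiate. Among the members above 1 FPKM, troponin C and both sarcomeric actins stood lowest relative to control. Of the 10 genes 8 reached a mean of 1 FPKM, all 8 were listed lower in cKO, and 2 were at least 2-fold lower, against 0.58% of the 11030 loci that reached this mean. Their median log2 ratio of cKO over control was -0.57, against -0.0087 over all those loci. These are values per genotype, of which no test was made here. Xist was 2.08-fold higher in cKO 'SHF', and its part in these ratios was not tested.

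Tnnc1 had 2.90 FPKM in cKO against 14.6 in control, 5.04-fold lower in cKO. Actc1 had 37.7 FPKM in cKO against 83.1 in control, 2.205-fold lower, and Acta1 had 2.73 FPKM in cKO against 5.38 in control, 1.97-fold lower and just outside the 2-fold limit. These 3 ratios lay below those of all but 0.118%, 0.444% and 0.589% of the loci. Acta1 was thus listed lower in cKO 'SHF' and was higher in cKO 'HEART', a difference in direction that could not be tested without values per 'SHF' embryo. This difference was not particular to Acta1. Of the smooth muscle genes called higher in cKO 'HEART', Acta2 had 36.9 FPKM in cKO 'SHF' against 63.0 in control. Tagln had 32.4 against 47.3 and Cnn1 2.11 against 2.91. Myh11 and Actg2 were under 1 FPKM, Myh11 lower in cKO (0.0530 against 0.0667) and Actg2 higher (0.854 against 0.794).

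Troponin I and troponin T were lower by a smaller amount, and by nearly the same ratio. Tnni1 had 17.7 FPKM in cKO against 26.0 in control (log2 ratio -0.56), and Tnnt2 had 6.78 FPKM in cKO against 10.1 in control (log2 ratio -0.57). Tnnc1 therefore stood at 42.8 FPKM per 100 FPKM of Tnnt2 in cKO and at 145 in control, although both subunits belong to 1 complex. The actins kept a closer proportion, with 7.25 FPKM of Acta1 per 100 FPKM of Actc1 in cKO and 6.47 in control.

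**Figure D3:**
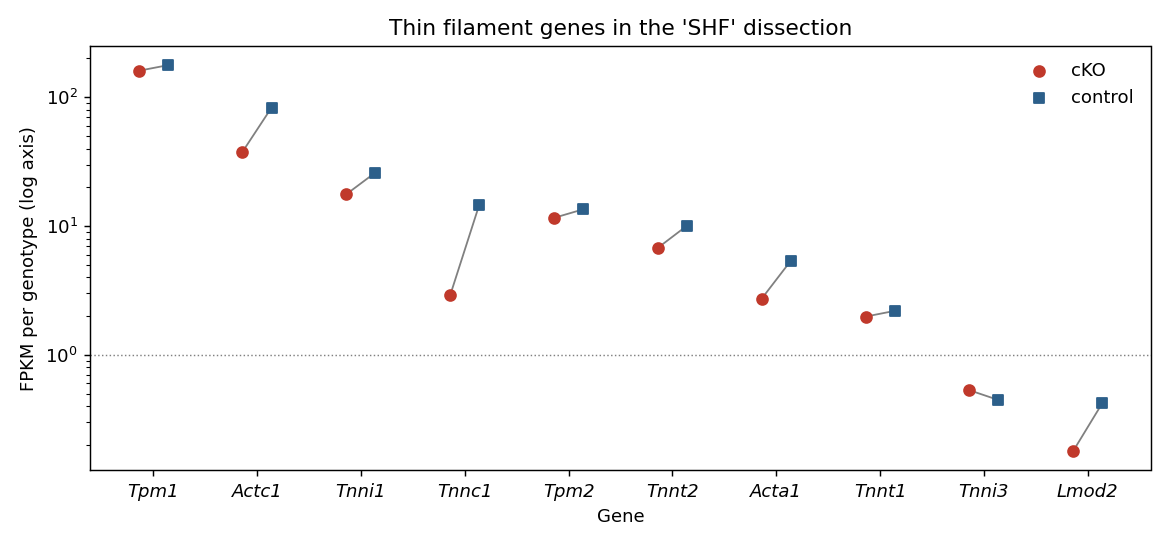
FPKM of each thin filament gene in 'SHF' on a log axis, with 1 value per genotype, cKO as circles left of control as squares, and genes in order of their control level. Tnnc1 has the steepest line (2.90 against 14.6 FPKM), while Tpm1, the highest, has one that is nearly level.

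The tropomyosins and slow skeletal troponin T had ratios nearer to 1. Tpm1, the highest member in this tissue, had 160.5 FPKM in cKO against 177 in control, a log2 ratio of -0.14. Tpm2 had 11.6 FPKM in cKO against 13.5 in control (log2 ratio -0.22), and Tnnt1 had 1.98 FPKM in cKO against 2.20 in control (log2 ratio -0.15). Tnni3 and Lmod2 were under the minimum of 1 FPKM. Tnni3 had 0.531 FPKM in cKO against 0.446 in control, and Lmod2 had 0.179 FPKM in cKO against 0.422 in control. In control 'SHF' the order from high to low was Tpm1, Actc1, Tnni1, Tnnc1, Tpm2, Tnnt2, Acta1, Tnnt1, Tnni3 and Lmod2, so that Tpm1 stood above Actc1 there, the reverse of 'HEART' per exon length. How far these levels lie apart relative to the spread between embryos is unknown.

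**Figure D4:**
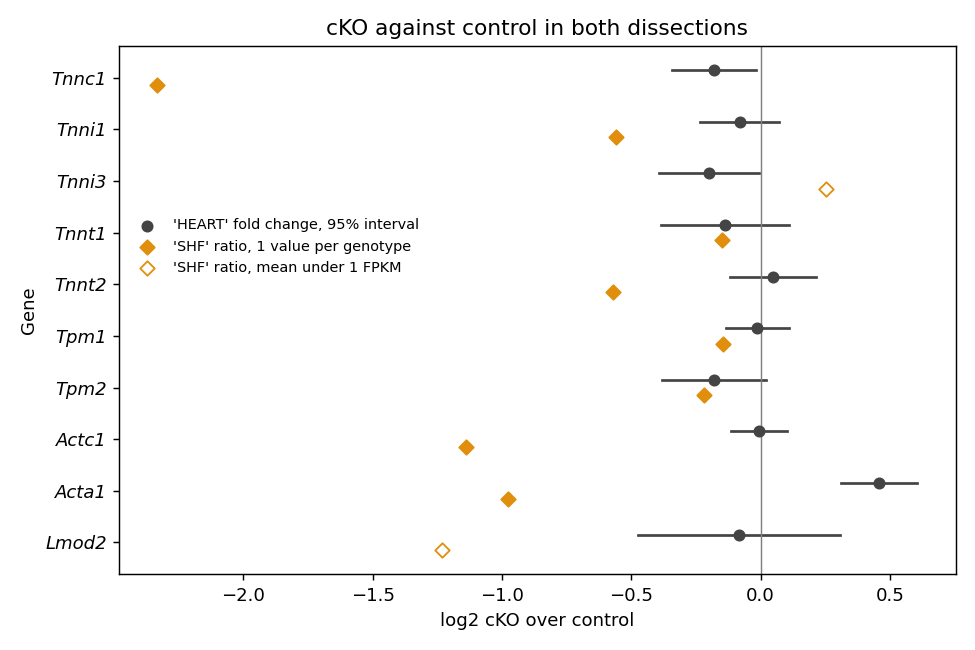
log2 of cKO over control for each thin filament gene, with 'HEART' fold changes and their 95% intervals as grey circles (n = 4 each) and 'SHF' ratios as diamonds, which have 1 value per genotype and no error and are open where the mean is under 1 FPKM. Acta1 lies at 0.46 in 'HEART' and -0.98 in 'SHF', and Tnnc1 at -0.18 and -2.33.

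Further genes of both filaments were read in 'SHF'. Of the 27 further thin filament genes 17 reached 1 FPKM, none was 2-fold changed in either direction, and their median log2 ratio was -0.09. The minimum left out genes that were listed lower, such as Xirp1, an actin-binding protein of striated muscle, with 0.482 FPKM in cKO against 1.24 in control. The 4 highest, Actb, Actg1, Tpm4 and Capzb, are expressed in most cells, and Actb had 3272 FPKM in cKO against 3477 in control. Of 15 thick filament and titin genes 11 reached 1 FPKM, and 9 of these were at least 2-fold lower in cKO, with a median log2 ratio of -1.30. The highest of the 11, Myl7, an atrial myosin light chain, had 38.9 FPKM in cKO against 73.1 in control. The summed level of 10 cardiomyocyte markers was 63.9 FPKM in cKO and 125.5 FPKM in control. That of 6 smooth muscle markers was 89.3 FPKM in cKO and 131 FPKM in control. The 10 skeletal muscle markers summed to 4.08 FPKM in cKO and 3.88 FPKM in control. Only 1 of these 10 reached 1 FPKM, Tnnt3, with 1.76 FPKM in cKO against 2.06 in control, so the rest of that sum lay under the minimum. The part of these cell types in the ratios of the members was not tested. The 6 erythroid genes with a value summed to 3187 FPKM in cKO and 4200.0 FPKM in control.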

How the data were processed

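RNA was sequenced in 43 base paired reads. The deposited 'HEART' values are raw read counts per gene, which the authors made with fastp 0.20.1, STAR 2.7.2b on mm10 and featureCounts 1.6.4. For the strand setting, nothing is stated: it was not given in the sources used here. The deposited 'SHF' values are 1 FPKM per genotype and locus. For this dissection STAR 2.5.0b, HTSeq and DESeq2 are named in the methods, whereas its columns are laid out as those of Cuffdiff, which the sources used here do not name. Both tables also hold the authors' fold changes and p-values, not used here, and 8 normalised columns of the 'HEART' table were left out. Samples were grouped by title.

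The count test was that of edgeR 4.0.16 under R 4.3.3 (filterByExpr, TMM, glmQLFit and glmQLFTest, no covariate), with Benjamini-Hochberg adjustment over all genes and a threshold of 0.1. Intervals are 95% and SE is the log2 fold change over the root of F. P-values set the genotype difference against the variation between embryos of a genotype, which the fit moderates across genes. The main fit took embryos as independent. The fit was tested on simulated data. 'SHF' ratios used loci with 1 symbol, values above 0 in both genotypes and a mean of at least 1 FPKM, keeping the highest locus of a symbol. Exon lengths and positions came from GENCODE M21. Alternatives were DESeq2 1.42.0, limma-voom (limma 3.58.1), RLE and total-count scaling, stricter and absent filters, leaving out each embryo, an adjusted p of 0.05, the replicate number or the embryo code prefix as a block, leaving out erythroid genes and log2 Xist (CPM + 1) as a covariate. For 'SHF' they were other minimum values, pseudocounts and folds.

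The members and all lists were chosen with earlier results of these data known. All 10 members are named, with Chd7, and of the other lists the genes past the threshold in 'HEART' (at most 6 by smallest p) and those highest in 'SHF'. Some are given only by count. Srf, Myocd, Nkx2-5, Xirp1 and the marker examples were named outside that rule, after their values were seen.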

Additional observations from a re-analysis of the deposited data

How the results depend on the processing

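The number of genes called in 'HEART' was 817, and it was 500 to 1421 when 1 embryo was left out (509 without control 1, 510 without cKO 1, 500 without cKO 2 and 1421 without cKO 4). It was 250 once log2 Xist entered the model. The number of members called was 1 throughout, except 0 with the Xist covariate and 3 without cKO 4, so 1 to 3 over the fits without 1 embryo, and DESeq2, limma-voom, both other scalings and both other filters called Acta1 alone. With total counts 42.96% of 838 calls were higher in cKO, against 54.59% with TMM. The member median was -0.13 to -0.03 over the fits without 1 embryo. Members near 0 changed sign: Actc1 was 0.000544 with DESeq2 and -0.0166 to 0.0085 over the fits without 1 embryo, Tpm1 -0.0346 to 0.0104, Tnnt2 -0.0068 to 0.0937 and Lmod2 -0.20 to 0.0741, none of them called. The cause of these changes was not tested. With the replicate number as a block 917 genes and the same 1 member were called. Deviations of embryos with the same number correlated at 0.0978, 0.0615, 0.228 and -0.0284, and only cKO 3 correlated best with the control of its own number, so the numbers were not taken to pair the embryos.

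In 'SHF' the number of loci past the 2-fold limit was 79, 1167 with no minimum FPKM, 21 with a minimum of 5 FPKM and 39 with 1 FPKM added, and 216 loci passed 1.5-fold. Members past the fold numbered 2, and 3 with no minimum, when Lmod2 entered, or at 1.5-fold, when Acta1 did. Of the order of levels, 2 of 10 places were kept with coding length. Counting error was small for the members, which had 361 counts or more in every 'HEART' embryo, while the depth behind each 'SHF' value is unknown.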
